A study of Vitis labrusca x Vitis vinifera with 9 samples.

Results

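Hydrogen cyanamide (HC) is sprayed on grapevine canes to bring dormant buds into growth, and the transcripts described here are those of buds harvested 24 h after a 1% HC spray, set against buds sprayed with water. The HC buds were chosen by the treatment in the sample titles and make up 3 arrays (replicates 1 to 3) of the 9 in the study. The other 6 arrays hold buds after pruning plus HC (PHC, 3 arrays) or after pruning alone (P, 3 arrays), and serve here only to show where HC differed from them. All buds were dormant buds at node 8 from the base of mature canes of 5-year-old vines of a Vitis labrusca x Vitis vinifera hybrid, taken in late summer, and each sample pooled 10 buds. The vines stood in 3 randomized complete blocks. By their labels the HC canes were pruned, whereas by the study's methods HC was sprayed on canes left unpruned. The arrays were grouped by their treatment title, so a contribution of pruning to the HC arrays cannot be told apart from HC by the labels alone. On every array RNA of treated buds carried the red dye Cy5 and RNA of water-sprayed control buds on unpruned canes the green dye Cy3, and the dyes were exchanged on none of them, so a dye bias of a single probe remains in its ratio. The control is therefore measured only within each ratio, and control RNA may be shared by arrays of 1 replicate number.

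Cyanamide is a small nitrile that blocks catalase, the enzyme that breaks down hydrogen peroxide, and its breakdown can release cyanide, which blocks the terminal oxidase of mitochondria. Plants meet such a block with an alternative oxidase, which passes electrons to oxygen without the cyanide-sensitive step, and with hemoglobins, which remove nitric oxide. Hydrogen peroxide is made by NADPH oxidases (RBOH) at the plasma membrane and by some class III peroxidases, and it is removed by catalases, ascorbate peroxidases, glutathione peroxidases and other class III peroxidases. The array carried a single 60-base probe for each predicted grapevine gene, whose letters were not used here.

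The following 4 primer pairs are the study's own for quantitative PCR of the genes of peroxide and nitric oxide turnover on which the HC results turn most, namely the strongest rise and a mitochondrial rise (VvHB2, VvAOX2) and a pair of falls (VvCAT1, VvRBOHA). They are printed 5′ to 3′ and show which transcripts were meant. They are not the array probes.
VvHB2 forward: ggctgtttttgttatgacttgtgaa
VvHB2 reverse: ctcactgtcactttgccagctt
VvAOX2 forward: gacgggctcggaaaatgg
VvAOX2 reverse: ggcacgccccagtagct
VvCAT1 forward: ggacaggcaagagcgtttca
VvCAT1 reverse: ggtgacccttggatcagacaa
VvRBOHA forward: ccccccagttccgttacaa
VvRBOHA reverse: ggagaaactgcagggcattg

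The value of each probe was the log2 ratio of Cy5 to Cy3, so 1 means a transcript 2-fold higher in treated buds than in water-sprayed buds, and every log2 value below is such a ratio or a difference between ratios. Of 30128 grapevine probes, 26395 were bright enough to be tested. A probe is said to have risen or fallen where its mean over the 3 HC arrays differed from 0 with an adjusted p under 0.05 in a limma fit over all 9 arrays and by at least 2-fold. The HC arrays resembled each other moderately, with Pearson correlations across the tested probes of 0.661 between replicates 1 and 2, 0.616 between replicates 1 and 3 and 0.504 between replicates 2 and 3, across genes that are not independent. Replicate 2 correlated more with PHC replicate 2 (0.691) than with either other HC array, and the PHC arrays correlated with each other at 0.823 to 0.916. Replicate 3 also had the widest spread of ratios, with a standard deviation of 0.968 against 0.823 and 0.790 on replicates 1 and 2, and the lowest median Cy5 signal of the 9 arrays, 234 against 290 on replicate 1 and 858 on replicate 2. The median Cy3 signal was 135 to 261 on these arrays. Whether the dim Cy5 signal of replicate 3 had a part in its wider spread was not tested. The 5 matched green tissue markers were well above background in both channels on all HC arrays and none was called, with a median log2 change of -0.35, and the marker lists for meristem, xylem and phloem matched no annotated probe, so the makeup of the buds was not tested. In whole buds, fewer cells of a type and less RNA per cell cannot be told apart.

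**Figure D1:**
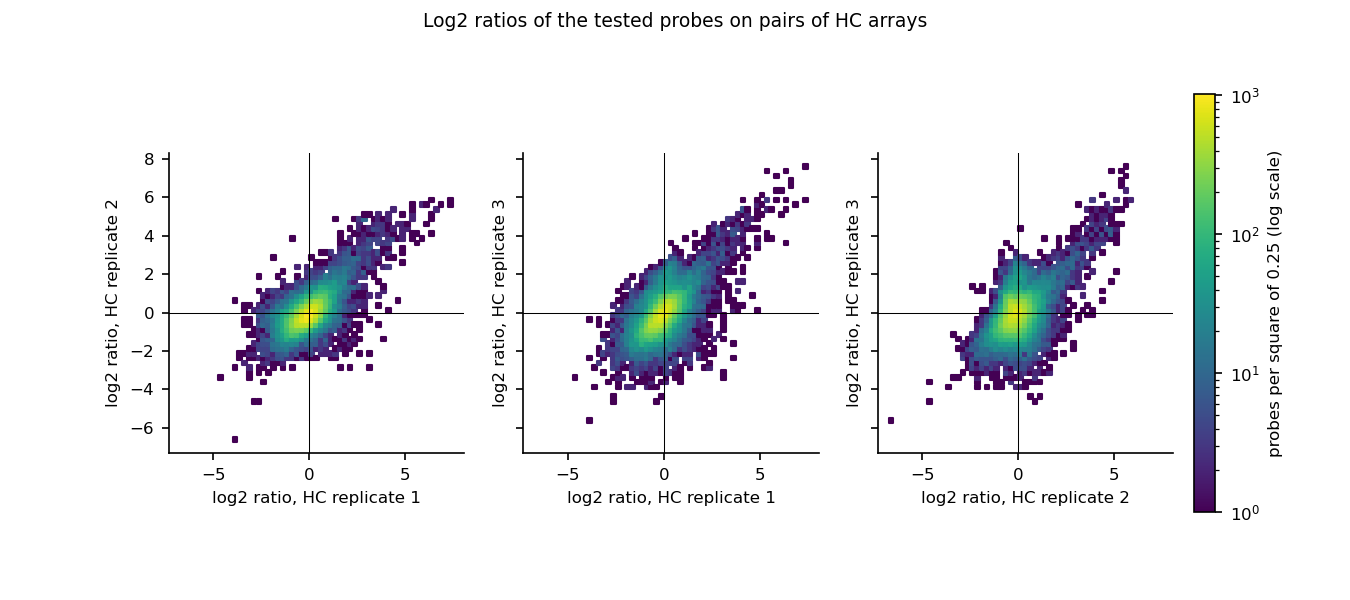
Log2 ratios of the 26395 tested probes on each pair of HC arrays, in squares of 0.25 log2 units shaded by the number of probes on a log scale. The cloud stretches along the diagonal in each panel, most of all at the strong rises, and is broadest between replicates 2 and 3 (r = 0.504).

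After HC, 1362 probes rose (5.16% of those tested) and 1254 fell (4.75%), 9.91% in all. The rises were far larger than the falls. Of the probes that rose, 447 did so by at least 4-fold, 204 by at least 8-fold, 97 by at least 16-fold and 24 by at least 32-fold, with a median log2 change of 1.54. Of those that fell, 79 did so by at least 4-fold, 8 by at least 8-fold and 1 by at least 32-fold, with a median log2 change of -1.25. All 3 arrays showed at least a 2-fold higher ratio for 807 probes (3.06%) and at least a 2-fold lower one for 438 (1.66%). Of the calls, 1352 rises (5.12%) and 1232 falls (4.67%) had 1 sign on all 3 arrays. The number of falls depended on how the scanner signals were scaled. With normexp background correction, which keeps dim signals above 0, and loess, 1052 probes rose and 468 fell, and with normexp and median centring 1356 rose and 301 fell. Of the 1362 rises, 1013 were also called with normexp and loess, and of the 1254 falls, 468 were. Without replicate 2, 1679 rose and 1866 fell.

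The genes of peroxide and nitric oxide turnover moved apart rather than together. The hemoglobin VvHB2 and the alternative oxidase VvAOX2 rose strongly, both catalase genes fell by nearly 3-fold, and the superoxide dismutases did not pass the test. VvHB2 (GSVIVT00036443001), which removes nitric oxide, had log2 ratios of 3.73, 4.71 and 4.79 on the HC arrays, 2.21, 3.50 and 3.52 on the PHC arrays and -1.37, 0.02 and -0.22 on the P arrays. Every HC value lay above every PHC and P value. Its mean change of 4.41 ± 0.59 (SD, n = 3; 21.3-fold, adjusted p = 5.6e-05) was 4.94 log2 units above that after P (adjusted p = 6.5e-04), and its difference from PHC, 1.33, did not pass the test (adjusted p = 0.072). In scanner signal, VvHB2 read 3693, 6747 and 3663 in the HC channel and 279, 258 and 132 in the water channel of the 3 arrays.

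VvAOX2 (GSVIVT00003173001), the mitochondrial alternative oxidase, had log2 ratios of 1.73, 2.98 and 2.58 on the HC arrays, 0.75, 1.09 and 1.38 on the PHC arrays and 0.13, 0.56 and 0.64 on the P arrays. No HC value overlapped those of the other treatments. Its mean of 2.43 ± 0.64 (SD, n = 3; 5.39-fold) exceeded that after P by 1.99 (adjusted p = 0.0070) and that after PHC by 1.36 (adjusted p = 0.015), the difference from PHC being lost with median centring or without PHC replicate 1. VvDOX1 (GSVIVT00020782001), an alpha-dioxygenase that oxygenates fatty acids, had 1.77, 3.05 and 3.64 on the HC arrays, -0.03, 0.17 and 0.55 on the PHC arrays and -0.48, 2.70 and 3.26 on the P arrays. It rose after HC, by 2.82 ± 0.96 (SD, n = 3; adjusted p = 0.0086), above every PHC value and overlapping the P values. Neither its difference from PHC nor that from P passed the test. A second alpha-dioxygenase, alpha-dioxygenase 2 (GSVIVT00017793001), fell evenly on the HC arrays, with -2.50, -2.41 and -2.70 against -1.49, -2.54 and -1.62 on the PHC arrays and -0.76, -1.17 and -1.22 on the P arrays.

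VvCAT1 (GSVIVT00004080001), a catalase, had log2 ratios of -1.54, -1.53 and -1.48 on the HC arrays, -1.30, -1.81 and -1.61 on the PHC arrays and 0.00, -0.54 and -0.50 on the P arrays. The HC values were the tightest of the 12 genes and lay below all P values, within the range of the PHC values. Its mean of -1.52 ± 0.03 (SD, n = 3; adjusted p = 1.2e-04) corresponds to a signal 2.86-fold lower, and with median centring it was -0.79 and under the 2-fold limit. The neighbouring identifier GSVIVT00004081001, also annotated as catalase isozyme 1-like, fell to -1.5, -1.43 and -1.77, and catalase copies are alike enough that a probe may read both. VvRBOHA (GSVIVT00002525001), an NADPH oxidase, had -1.73, -0.97 and -1.90 on the HC arrays, -2.19, -1.64 and -2.05 on the PHC arrays and -0.70, -0.70 and -0.53 on the P arrays. It fell after HC by 1.53 on the log2 scale (adjusted p = 4.3e-04), and its difference from P, -0.89, did not pass the test (adjusted p = 0.062).

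The second NADPH oxidase, VvRBOHE (GSVIVT00016386001), had 0.69, 0.86 and 1.31 on the HC arrays against -1.57, -0.91 and -1.18 on the PHC arrays and -0.24, 0.78 and 0.38 on the P arrays. Its mean after HC, 0.95, was under 2-fold (adjusted p = 0.0081), and it lay 2.17 above that after PHC (adjusted p = 0.0018), with no overlap of the arrays. VvAPX3 (GSVIVT00036747001), an ascorbate peroxidase, had -0.97, -1.22 and -0.96 after HC and fell just past 2-fold, with -0.78 under normexp and loess. Glutathione peroxidase VvGPX2 had 0.97, -0.56 and 0.44 after HC, a spread that crosses 0 (adjusted p = 0.61). The iron superoxide dismutases VvFSD and VvFSD3, which turn superoxide into peroxide in chloroplasts, had means of 0.33 and 0.17 after HC, and lay 1.27 and 1.65 below their values after PHC (adjusted p = 0.0059 and 0.0013). The peroxidases VvPOD72 and VvPOD12 had HC values of 2.64, 3.81 and -0.18, and of -1.21, -0.67 and -0.35. The call of VvPOD72 (mean 2.09, adjusted p = 0.046) rested on replicates 1 and 2 and was lost in 10 of the alternative fits, among them those without either of these arrays (1.82 and 1.23), and VvPOD12 stayed under 2-fold with a mean of -0.74.

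**Figure D2:**
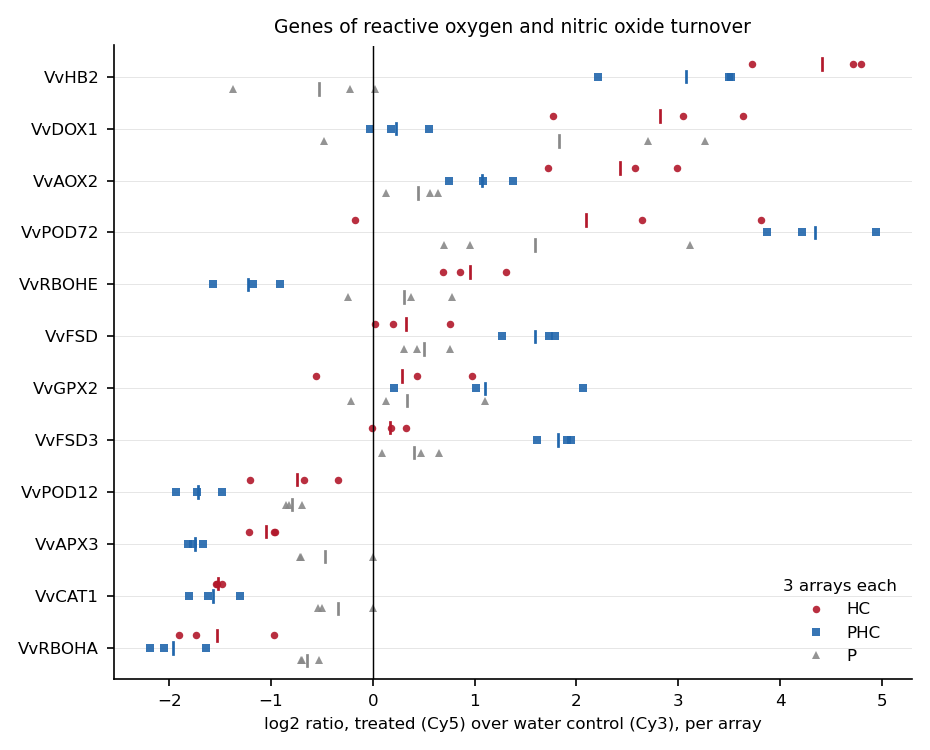
Log2 ratios over water control of the 12 genes of reactive oxygen and nitric oxide turnover on each of 9 arrays, with a tick at each treatment mean (HC circles, PHC squares, P triangles). VvHB2 reached 3.73 to 4.79 on the HC arrays and stayed at or near 0 or below on the P arrays, whereas VvCAT1 stood at -1.54 to -1.48 after HC.

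These 12 genes belong to families whose members the study listed because they responded to P, HC or PHC on these same arrays. The share of listed members called depends on that selection, so neither the share nor the direction is independent evidence. Of 100 tested listed members of all these families, 30 rose, 28 fell and 42 did not pass. Over all probes 5.16 and 4.75% were called, shares that cannot be fairly compared with those of genes listed as responding. Of 25 listed ethylene response factors (ERF), which carry ethylene and stress signals to their target genes, 8 rose and 5 fell (32 and 20%). The rises were the larger. ERF098-like (GSVIVT00020219001) had 6.26, 4.95 and 7.32 on the HC arrays, 5.55, 5.37 and 4.99 on the PHC arrays and 0.00, -0.14 and -0.49 on the P arrays, and ERF 1B-like (GSVIVT00002192001) had 6.18, 4.55 and 5.20 against 4.74, 3.71 and 3.70 after PHC and 1.48, -0.66 and -0.79 after P. Both were high wherever HC had been applied, with HC and PHC values that overlapped, and near 0 on most P arrays. With normexp and loess their means after HC were 4.42 and 3.51. A further ERF 1B (GSVIVT00020221001) set HC apart from both other treatments, with 2.72, 2.25 and 3.40 after HC, 0.50, 1.06 and 1.11 after PHC and -0.75, -0.77 and -0.72 after P (HC minus PHC 1.90, adjusted p = 0.0026; HC minus P 3.54, adjusted p = 3.0e-04). ERF073 (GSVIVT00028041001) rose by 3.86 ± 0.19 and ERF113 (GSVIVT00006201001) by 1.54 ± 0.55 (SD, n = 3). The 5 falls were WIN1 (-1.80), known in Arabidopsis as a regulator of cuticle wax, ERF105, ERF105-like, ERF5-like and RAP2-3, the last 4 between -1.02 and -1.05. With normexp, under loess or median centring, none of the listed ERF genes fell and 7 rose, and without HC replicate 3 2 fell.

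Of 19 listed WRKY factors, regulators of defence and senescence genes, 9 rose and 4 fell (47.4 and 21.1%). Both WRKY75 genes rose evenly, GSVIVT00037881001 with 2.74, 2.83 and 3.00 on the HC arrays against 0.36, 2.22 and 1.51 on the PHC arrays and 0.05, 0.47 and 0.44 on the P arrays, and GSVIVT00002773001 with 2.54, 2.67 and 2.75 on the HC arrays. The first of these was 1.55 with normexp and loess. Among the other rises were a WRKY40-like gene (GSVIVT00037648001) with 2.61, 2.18 and 3.14 and a WRKY18-like gene (GSVIVT00032687001) with 1.92, 1.25 and 1.90. WRKY23 fell by 1.34 on the log2 scale, and WRKY70, WRKY7 and WRKY22 fell by 1.27, 1.22 and 1.01, of which the last 3 were under 2-fold with normexp and loess.

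The listed heat stress factors, some of which switch on chaperone genes, divided evenly, with 2 of 10 higher and 2 lower. HSF B-3 (GSVIVT00025614001) had 2.09, 2.20 and 2.27 on the HC arrays, 0.91, 1.01 and 1.46 on the PHC arrays and 0.27, 0.31 and 0.53 on the P arrays, and HSF A-2e (GSVIVT00021673001) had 1.42, 1.87 and 1.86 against -0.19, 0.23 and 0.20 after PHC and -0.44, -0.42 and -0.18 after P. For both factors the HC arrays stood above all the others, by 1.64 over PHC for A-2e (adjusted p = 0.0013). The difference of B-3 from PHC, 1.06, was lost with normexp and loess (0.87), with median centring (0.57) and without PHC replicate 1 (0.95). HSF A-7a-like (-1.34) and A-6b (-1.20) fell. A list of 21 heat shock proteins had no rise and 1 fall, that of a small heat shock protein of class I (GSVIVT00000343001; -1.14, -1.71 and -1.29 after HC, mean -0.90 with median centring), which was 2.21 above its level after PHC (adjusted p = 0.0025).

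Class III peroxidases use peroxide to cross-link or oxidize cell wall compounds. Of the 33 that the study listed as responding, 8 were higher (24.2%) and 12 lower (36.4%) after HC. A wider list of 74 tested peroxidases, drawn from the annotation, had 9 rises (12.2%) and 14 falls (18.9%). With normexp and loess that wider list had 6 rises and 4 falls. Peroxidase 7 (GSVIVT00002117001) had 3.47, 2.33 and 2.87 after HC, although only 1 of its control signals was well above background and normexp with loess gave 0.91. A second peroxidase 7 (GSVIVT00024455001) had 2.21, 1.48 and 1.70, and cationic peroxidase 1 (GSVIVT00015159001) 2.36, 2.42 and 1.82. A second gene annotated as cationic peroxidase 1 (GSVIVT00015160001), whose identifier is next in number, went the other way, with -1.82, -2.40 and -1.61 after HC against -0.18, -1.52 and -0.89 after PHC and 0.57, -0.28 and -0.61 after P. Peroxidase 47 (GSVIVT00003644001) fell after HC and stayed near 0 after both other treatments, with -2.18, -1.5 and -1.97 on the HC arrays against -0.11, 0.32 and -0.01 on the PHC arrays and -0.08, 0.58 and 0.16 on the P arrays (HC minus PHC -1.95, adjusted p = 0.0015). Peroxidase 25 (GSVIVT00016899001) had the lowest mean, -2.55, with 1 of 3 HC signals well above background and -0.53 with normexp and loess. Under that scaling 5 of the 33 listed peroxidases rose and 3 fell, and 5 rose without HC replicate 1 or without HC replicate 2.

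**Figure D3:**
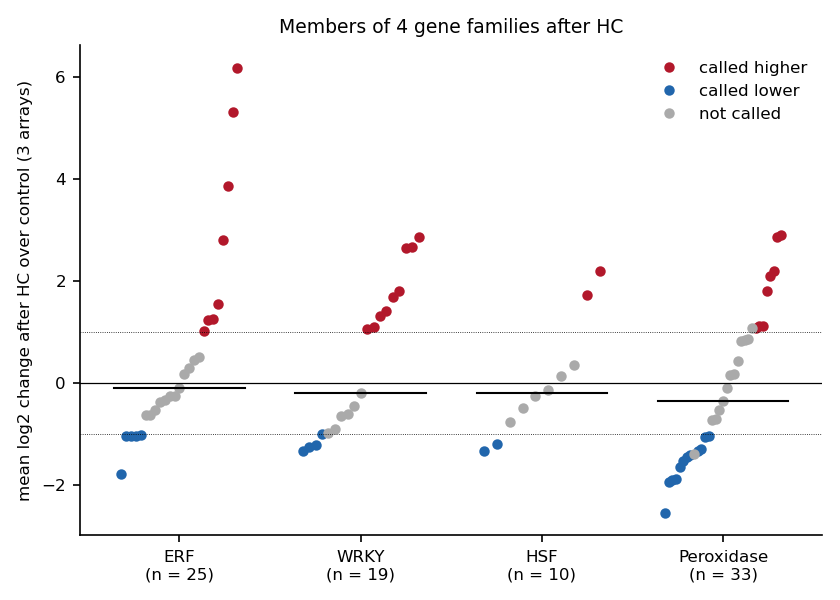
Mean log2 change after HC over 3 arrays of each tested ERF, WRKY, HSF and class III peroxidase gene that the study listed as responding. Genes are ordered by value, with the median of each family's listed genes as a black line and dotted lines at 2-fold. The highest ERF values, 5.31 and 6.17, lie far above those of the other families, while the 4 medians lie between -0.37 and -0.10.

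Among named genes of clear signal, the 12 largest rises after HC included the ERF098-like and ERF 1B-like genes given above, a dirigent protein, stilbene and terpene synthases, a glucosyltransferase, a sulfate transporter and a glucanase. Dirigent protein 22 (GSVIVT00024744001), which guides the coupling of phenolic radicals, had log2 ratios of 7.48, 5.63 and 7.55 on the HC arrays, 5.18, 5.24 and 4.89 on the PHC arrays and 1.16, 0.64 and 1.26 on the P arrays. It was higher on every HC array than on any other, a mean change of 118-fold (log2 6.89, or 5.89 with normexp and loess). Its difference from PHC, 1.78, was lost in 5 of the alternative fits, among them those without HC replicate 1 (1.49) or 3 (1.45). The shikimate kinase family gene GSVIVT00014074001, of the pathway that feeds phenylalanine synthesis, had 4.26, 3.84 and 4.95 on the HC arrays, 2.06, 2.82 and 2.26 on the PHC arrays and 0.04, 0.69 and 0.82 on the P arrays. The 3 treatments did not overlap, and HC stood 3.83 above P (adjusted p = 4.2e-04) and 1.97 above PHC (adjusted p = 0.0039). CYP73A100 (GSVIVT00017017001), of the P450 family that hydroxylates cinnamate early in the phenylpropanoid pathway, had 4.27, 3.85 and 5.25 after HC, 1.97, 2.92 and 3.09 after PHC and 0.69, 1.35 and 1.14 after P, again without overlap (HC minus PHC 1.80, adjusted p = 0.012).

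Stilbene synthases make resveratrol. The 3 highest were GSVIVT00005194001 with 6.47, 5.09 and 3.74 on the HC arrays, GSVIVT00007777001 with 5.42, 4.98 and 3.94, and GSVIVT00007353001 with 4.80, 4.73 and 4.34. On the P arrays the first had 1.00, 0.80 and 1.34, below all its HC values. With normexp and loess the first 2 were 2.67 and 2.82. The terpene synthases GSVIVT00021769001 (valencene synthase-like), GSVIVT00021758001 and GSVIVT00021747001 had means of 4.75, 4.73 and 4.59 and the same order of arrays, lowest on replicate 1 and highest on replicate 3. The first 2 of these exceeded their levels after P by 2.51 and 2.49, differences that were lost in 9 and 6 of the alternative fits. Stilbene and terpene synthases are large families of near-identical copies, so a probe may read its relatives, and the 3 terpene synthase probes may not measure separate genes. A (-)-germacrene D synthase-like gene (GSVIVT00027702001) of the same enzyme class fell, with -1.65, -2.47 and -2.87.

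Other large rises were those of a crocetin glucosyltransferase (GSVIVT00003476001), which attaches glucose to small molecules, with 5.25, 4.36 and 6.05, and of sulfate transporter 3.5 (GSVIVT00016767001) with 4.03, 5.10 and 5.75. An endo-1,3-beta-glucosidase-like gene (GSVIVT00022221001), of the glucanases that cut callose, had 4.79, 4.44 and 5.30 on the HC arrays against 3.44, 4.60 and 4.35 on the PHC arrays and 0.48, 2.95 and 2.22 on the P arrays, and its difference from P was 2.96 (adjusted p = 0.015). A second member, glucan endo-1,3-beta-glucosidase GVI (GSVIVT00015734001), fell, with -2.13, -2.59 and -2.41 after HC, or a mean of -1.23 with normexp and loess. One of the steadiest rises was that of a subtilisin-like protease (GSVIVT00011402001), known here by its GO term alone, with 5.44, 5.04 and 5.29 on the HC arrays, 4.80, 4.45 and 4.20 on the PHC arrays and 0.07, -0.20 and 0.13 on the P arrays, a difference from P of 5.26 (adjusted p = 3.3e-05). With normexp and loess the mean of the subtilisin-like protease after HC was 3.55. Most of the genes in these paragraphs stand in the study's tables of genes that responded on these arrays. The shikimate kinase and the subtilisin-like protease do not.

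The falls of named genes were smaller. An acidic endochitinase (GSVIVT00026960001), which cuts chitin, was the exception, at -3.85, -6.57 and -5.60 on the HC arrays, with a wide spread of 1.38 and HC signals well above background on 2 arrays, and it did not pass with normexp and loess (-3.02). SWEET14 (GSVIVT00017991001), a sugar exporter, fell by 2.27 ± 0.50 (SD, n = 3) on the log2 scale and a cationic amino acid transporter 6 (GSVIVT00013821001) by 2.25 ± 0.66 (SD, n = 3), the SWEET14 fall being 1.17 with normexp and loess. An aspartyl protease family gene (GSVIVT00009604001) had -2.09, -1.90 and -2.54 on the HC arrays, -1.89, -2.08 and -3.12 on the PHC arrays and 0.01, -0.28 and -0.29 on the P arrays. It fell with HC in both treatments and lay 1.98 below its level after P (adjusted p = 0.0066). A reticulon (GSVIVT00017731001; -2.49, -2.11 and -3.62), a GDSL lipase family gene (GSVIVT00028445001; -3.08, -2.36 and -1.35) and a putative riboflavin synthesis gene (GSVIVT00024399001; -2.25, -1.65 and -2.58) fell as well, and were at -0.94, -0.80 and -0.97 with normexp and loess. EMB-1-like and the chaperone dnaJ 11 had means of -2.31 and -2.28.

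**Figure D4:**
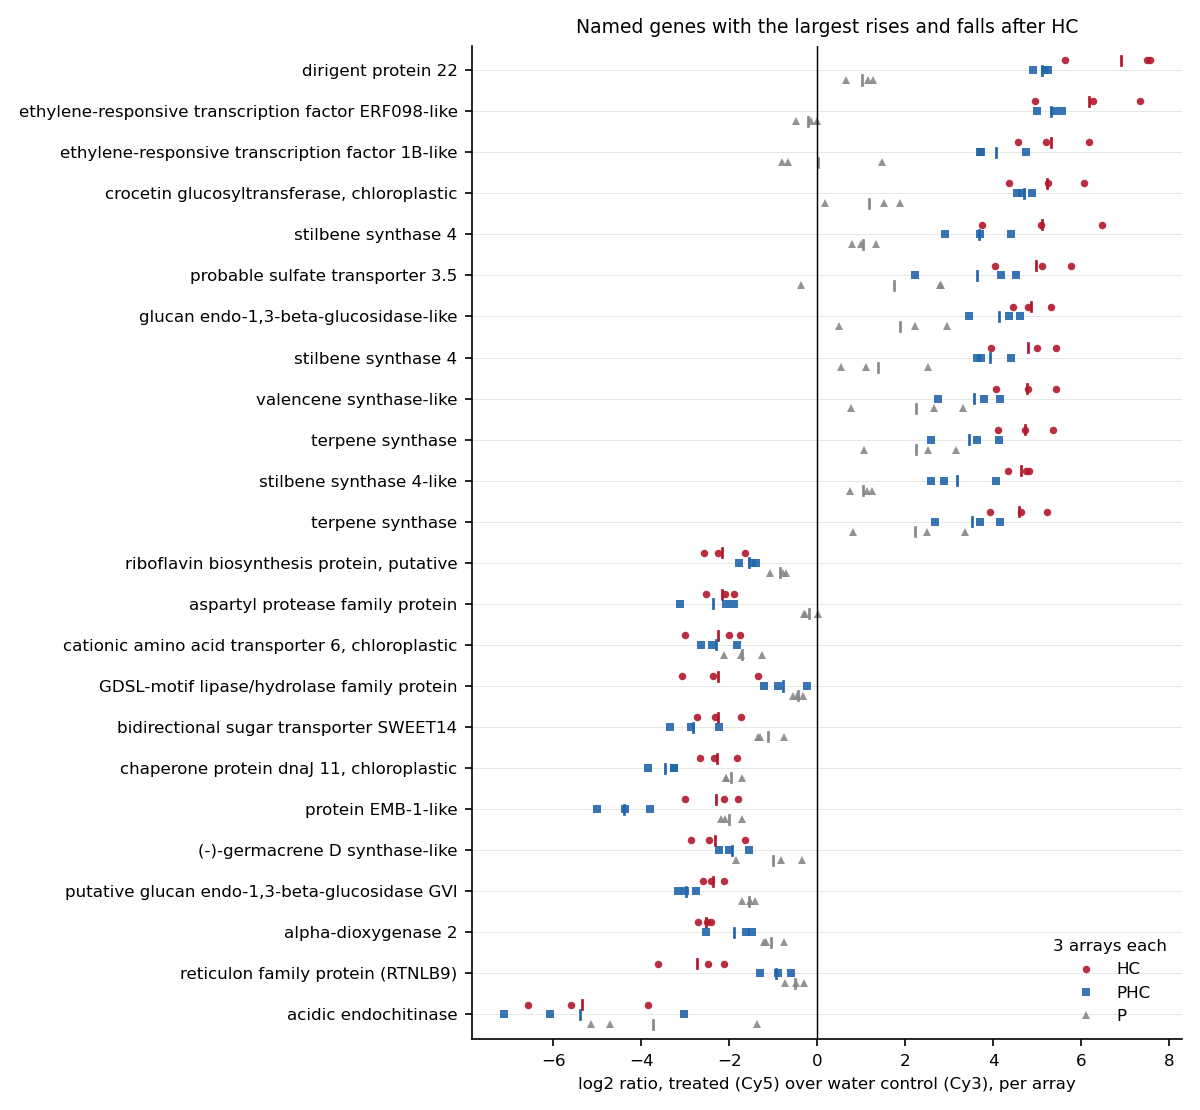
Log2 ratios over water control on each array for the named genes with the 12 largest rises and 12 largest falls after HC, with a tick at each treatment mean (HC circles, PHC squares, P triangles). Apart from the acidic endochitinase at -5.34, the falls lie between -2.74 and -2.16, while the rises lie between 4.59 and 6.89.

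Beyond single genes, 42 lists drawn from the annotation describe wider functions, each set beside the 5.16% of rises, 4.75% of falls and median log2 change of -0.03 over all tested probes. Only 6981 probes carried a homolog description and 15233 a GO identifier, so the lists hold a part of each family. The nucleosome histones, the proteins around which DNA is wound, had the highest share of rises among lists of 15 or more members, 14 of 50 (28%), with 1 fall and a median of 0.50. The list median was similar in the other treatments, 0.45 after P and 0.52 after PHC. In the difference from P, 12 of the 50 histones were higher and 3 lower after HC, against 3.35 and 3.13% of all probes. In the difference from PHC, 8 were higher and 8 lower, against 5.33 and 8.55% of all probes. The number of histones that rose after HC was 12 to 18 in all alternatives, and 30 of 50 were above 0 on all HC arrays, against 22.3% of all probes. GSVIVT00024375001, whose Arabidopsis homolog is AT5G59910, had 2.81, 1.95 and 2.84 on the HC arrays, 1.82, 2.05 and 1.55 on the PHC arrays and 0.69, 0.76 and 0.59 on the P arrays. The HC and PHC values overlapped and lay above all P values (HC minus P 1.85, adjusted p = 0.0031). The single fall, that of GSVIVT00028065001, was equally clear, with -1.51, -2.19 and -1.82 after HC against -0.55, -0.45 and -0.55 after PHC and 0.16, 0.17 and -0.18 after P (HC minus PHC -1.33, adjusted p = 0.0024). The 44 genes of cell cycle regulation, which drive cells into DNA synthesis and division, had no member called in either direction (1 or 2 falls when an HC array was left out) and a median of 0.02, and 66 microtubule motors had 1 rise and 6 falls with a median of -0.32, with 2 falls under normexp and loess, 10 without HC replicate 2 and 3 without HC replicate 3. In the difference from PHC, 1 of the 44 cell cycle genes was higher and 11 were lower after HC. Of the 66 microtubule motors, 1 was higher and 16 were lower. Histone probes may read several copies of these near-identical genes.

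Enzymes and carriers of foreign and secondary compounds were changed in both directions. Of 387 monooxygenases, mainly cytochromes P450, 53 rose (13.7%) and 49 fell (12.7%), both shares above those of all probes, with a median of -0.02, and with normexp and loess 38 rose and 28 fell. Besides CYP73A100, GSVIVT00007155001 had 4.24, 3.98 and 5.15 on the HC arrays and GSVIVT00019600001 had 3.04, 3.82 and 3.04, against 1.93, 3.37 and 3.17 after PHC and -0.31, -0.28 and -0.26 after P. The lowest called member, GSVIVT00032191001 (homolog AT2G26170), had -3.23, -2.21 and -3.10 after HC, -3.28, -2.34 and -2.81 after PHC and -0.57, -0.66 and -0.63 after P, HC and PHC overlapping each other and neither overlapping P. Of 66 multidrug transport genes, carriers that expel compounds from the cytosol, 7 rose and 5 fell. A MATE efflux gene (GSVIVT00001094001) rose with 3.91, 3.25 and 2.93 after HC, or 1.63 with normexp and loess, and a putative ripening-responsive gene (GSVIVT00011453001) with 1.96, 1.67 and 2.05, against 1.34, 1.38 and 1.13 after PHC and -0.07, -0.65 and -0.67 after P. No member fell with normexp under loess or median centring. Of 49 O-methyltransferases, which methylate phenolic compounds among others, 2 rose and 8 fell with a median of -0.42, the highest being GSVIVT00003030001 at 3.19, 3.94 and 2.01, and 2 fell with normexp and loess and 4 without HC replicate 2.

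Cell wall enzymes and chitinases also split. Of 39 pectin-modifying enzymes, 7 rose and 3 fell (17.9 and 7.69%), or 6 and 1 without replicate 2. Pectinesterase 2 (GSVIVT00026388001), which removes methyl groups from pectin, had 4.11, 3.26 and 4.72 on the HC arrays, 0.78, 2.78 and 2.05 on the PHC arrays and 1.54, 2.13 and 2.62 on the P arrays, every HC value above every other. Its difference from PHC, 2.16 (adjusted p = 0.019), was lost without HC replicate 1 or 3 or PHC replicate 1 or 3. Polygalacturonases At1g48100, which cut pectin chains, rose in 2 copies, by 3.27 (GSVIVT00002737001; 1.62 with normexp and loess) and 2.51 (GSVIVT00019678001). Of 17 chitinases matched by the list, 3 rose and 4 fell (17.6 and 23.5%). The list does not hold the acidic endochitinase (GSVIVT00026960001), whose mean was -5.34. A class IV endochitinase (GSVIVT00034644001) had 2.53, 3.30 and 3.71 on the HC arrays, 1.20, 2.29 and 2.61 on the PHC arrays and 0.06, 2.95 and 2.25 on the P arrays, and the chitinase 5-like gene next in number (GSVIVT00034642001) had 2.56, 3.48 and 3.65. The remaining rise (GSVIVT00034623001), at 2.59, 3.05 and 3.57, lay 2.73 above its level after P (adjusted p = 5.8e-04). The basic endochitinase (GSVIVT00011587001) and the class I chitinase (GSVIVT00036222001) fell, with means of -1.33 and -1.07, of which the second was under 2-fold with normexp and loess (-0.92). Of 44 extensins and proline-rich proteins matched by the list none rose and 3 fell. The list does not hold the 36.4 kDa proline-rich protein-like gene (GSVIVT00009622001), which rose by 2.05.

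A few genes of energy metabolism rose after HC, while most of those in the lists were not called. Of 21 genes of glycolysis 3 rose and none fell, with a median of 0.19, against 0.18 after P and 0.86 after PHC. Phosphoglycerate mutase (GSVIVT00015262001) had 2.18, 2.32 and 2.33 after HC, and a putative pyruvate kinase (GSVIVT00024850001), which makes pyruvate and ATP, had 3.14, 3.23 and 3.39 on the HC arrays, 1.22, 2.27 and 3.23 on the PHC arrays and 0.25, -1.03 and 0.35 on the P arrays. The pyruvate kinase stood 3.40 above its level after P (adjusted p = 0.0051), and was 1.43 with normexp and loess. A pyruvate decarboxylase (GSVIVT00006281001), which opens the way from pyruvate to ethanol, had 0.97, 1.79 and 1.34 after HC against 0.59, 0.77 and 0.92 after PHC and 0.22, 0.25 and 0.21 after P, and was the only 1 of 6 tested genes of fermentation to be called. In the difference from PHC none of the 6 was higher and 3 were lower after HC, against 5.33 and 8.55% of all probes. The list medians were 0.52 after HC, 0.61 after P and 1.39 after PHC. In the citric acid cycle list a cytoplasmic aconitase (GSVIVT00026023001) rose by 1.88 ± 0.13 (SD, n = 3), 1 of 10 members. The median of that list was 0.36 after HC, 0.36 after P and 1.01 after PHC. Of 22 genes of the respiratory chain none was called (2 rises without replicate 2). Their median was 0.32, against 0.26 after P and 0.70 after PHC. Cytosolic ribosomal proteins had 5 rises and no fall among 64 members, with 18 rises under median centring. Their median was 0.32 after HC, 0.40 after P and 1.17 after PHC. No ribosomal member was called in the difference from P, while 20 of the 64 were lower after HC than after PHC, against 8.55% of all probes.

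Among signalling lists, calmodulins and calcium-dependent kinases had 1 rise and 4 falls among 44 (2.27 and 9.09%), with 2 falls under normexp and loess. Leucine-rich repeat receptor kinases had 3 rises and 5 falls among 64 (4.69 and 7.81%). The protein kinase list stayed close to the background. Of 1240 protein kinases, 64 rose (5.16%) and 79 fell (6.37%). GSVIVT00018594001 had 4.10, 3.08 and 3.64 on the HC arrays, 1.5, 1.97 and 2.18 on the PHC arrays and 0.22, 0.06 and 0.32 on the P arrays, and a leucine-rich repeat kinase (GSVIVT00016280001) had 1.79, 2.02 and 2.37 against 0.53, 0.80 and 0.61 after PHC and 0.08, -0.47 and -0.22 after P. In both the treatments were fully separated, HC highest. Of 289 pentatricopeptide repeat proteins, which process organelle RNA, none rose and 4 fell, but without replicate 3 15 rose and 2 fell, and without replicate 2 1 rose and 12 fell, and the medians of the 3 arrays were 0.15, 0.30 and -0.20. Thioredoxins and glutaredoxins, which reset protein thiols, had 1 rise and 4 falls among 22 (4.55 and 18.2%), and no call with normexp and loess. REVEILLE 1 (GSVIVT00023467001), a MYB-type factor of the circadian clock in Arabidopsis, fell evenly with -1.75, -1.45 and -1.56 after HC, and a gene of the dormancy/auxin associated family (GSVIVT00022672001) had -1.28, -1.09 and -1.42, or a mean of -0.63 with median centring. Both were less reduced than after PHC, by 1.69 and 1.33 (adjusted p = 0.0013 and 0.0027). In 6 of the 42 lists no member was called.

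**Figure D5:**
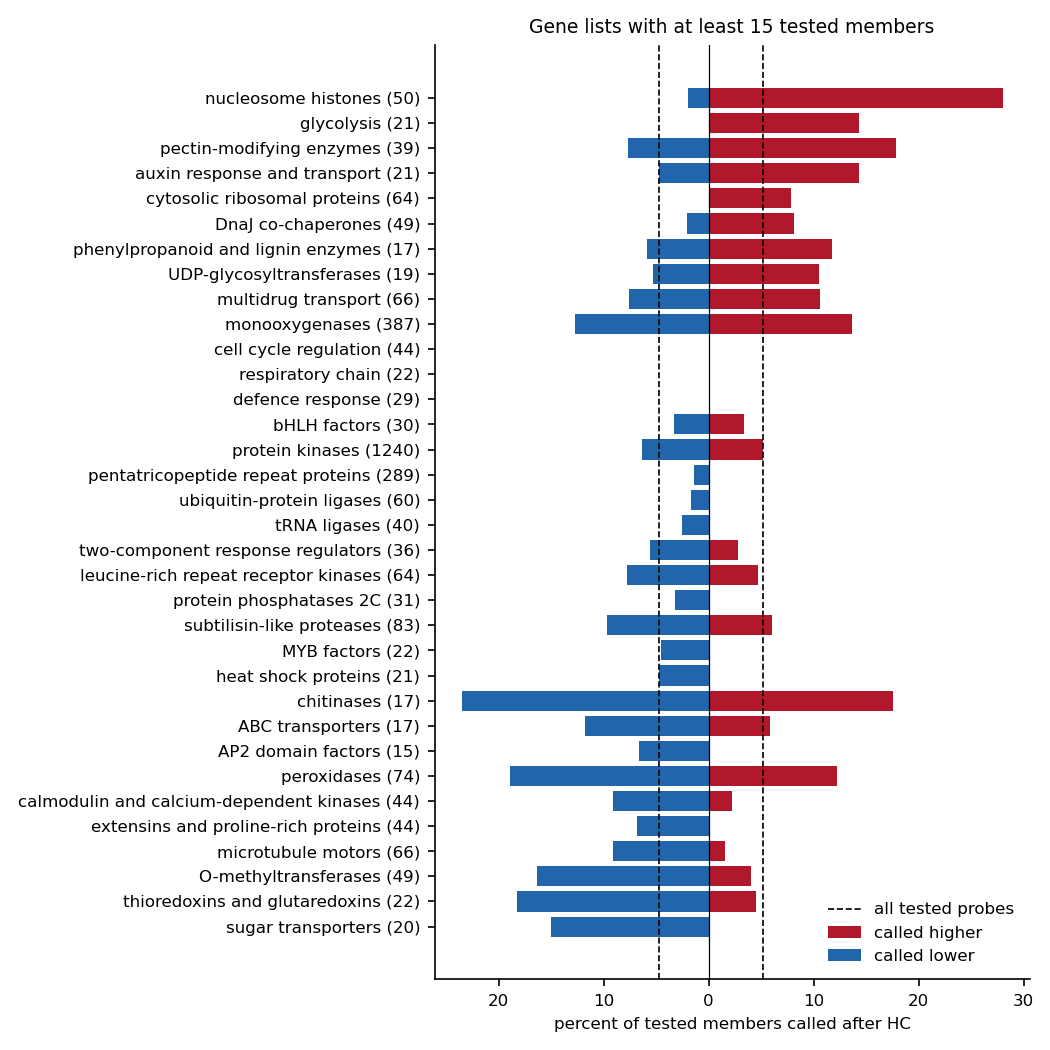
Share of the tested members of each gene list that rose (right) or fell (left) after HC, for lists of 15 or more tested members, whose number stands in parentheses, with dashed lines at the shares over all tested probes (5.16 and 4.75%). Nucleosome histones reached 28% of rises, and 11 lists passed both dashed lines, among them monooxygenases, peroxidases, chitinases, pectin-modifying enzymes, multidrug transport and subtilisin-like proteases. Some barely passed, such as protein kinases with 5.16% of rises and auxin response and transport with 4.76% of falls. With normexp and loess no multidrug transport gene or subtilisin-like protease fell.

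The HC arrays were then compared directly with those of pruned buds. P alone changed 3.32% of the probes against water. HC differed from P at 6.48% of the probes, 883 being higher (3.35%) and 827 lower (3.13%). Dirigent protein 22, ERF098-like, ERF 1B-like, the subtilisin-like protease and VvHB2 were among the genes most in excess after HC, as given above. In the other direction stood a xyloglucan endotransglycosylase, a pair of peroxidases 64, a nodulin MtN21-related gene, a glutaredoxin and a dirigent family gene, each of which rose after P and did not rise after HC. A xyloglucan endotransglycosylase (GSVIVT00006913001), which cuts and rejoins wall xyloglucan, had -2.63, -0.36 and -1.08 on the HC arrays, 5.31, 3.61 and 4.29 on the PHC arrays and 3.47, 3.15 and 1.96 on the P arrays. Its HC values were all below 0 and all others above it, a difference of -4.22 from P (adjusted p = 0.0057) and -5.76 from PHC (adjusted p = 0.0012), although its own change after HC, -1.36, did not pass (adjusted p = 0.051). Peroxidase 64 (GSVIVT00011734001) had -2.37, -0.34 and -1.5 on the HC arrays, 1.02, 2.90 and 2.20 on the PHC arrays and 1.25, 3.13 and 2.96 on the P arrays. A second peroxidase 64 (GSVIVT00015486001) had -1.47, -1.33 and -1.79 after HC against 0.52, 1.44 and 1.09 after P, a difference of -2.54 that was -0.88 with normexp and loess. A glutaredoxin (GSVIVT00019806001) had -1.95, -1.56 and -0.76 after HC against 2.05, 1.38 and 0.31 after P, and a gene of the dirigent family (GSVIVT00002504001) -1.86, -0.83 and -1.22 against 0.53, 1.61 and 1.96. HC and P arrays did not overlap in any of these.

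Against PHC, HC differed at 13.9% of the probes, with 1407 higher (5.33%) and 2256 lower (8.55%). The split moved with scaling, to 431 higher and 3468 lower with median centring, under which the median of all probes moved to -0.12, against 0.06 in the authors' scaling. The 5 genes described next were lower after HC than after PHC, and all of them rose after P as well. A prephenate dehydrogenase (GSVIVT00003278001), of tyrosine synthesis, had -1.59, -0.70 and -0.85 on the HC arrays, 2.73, 2.69 and 2.78 on the PHC arrays and 1.43, 1.64 and 0.77 on the P arrays. A chloroplast nucleoid DNA-binding protein-related gene (GSVIVT00030279001) had -0.12, 0.24 and -0.74 on the HC arrays, 3.24, 3.48 and 3.64 on the PHC arrays and 2.04, 2.58 and 1.88 on the P arrays, and a leucine-rich repeat gene (GSVIVT00021264001) and a nodulin MtN21-related gene (GSVIVT00031771001) had their means in the same order, with HC values from -1.13 to 0.82. A 36.4 kDa proline-rich protein-like gene (GSVIVT00009622001) was raised on all arrays, to 1.04, 3.10 and 1.99 after HC against 4.96, 6.23 and 6.16 after PHC and 1.70, 5.09 and 3.83 after P.

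Of the 6 genes that stood furthest above PHC, 5 had means below 0 in all 3 treatments. They include genes of abscisic acid signalling and seed maturation. ABSCISIC ACID-INSENSITIVE 5 (GSVIVT00021625001), a transcription factor of abscisic acid responses, had -0.89, -1.06 and -1.39 on the HC arrays, -3.48, -3.15 and -4.31 on the PHC arrays and -1.40, -1.02 and -1.09 on the P arrays. It fell after HC by a little over 2-fold, with -0.89 under median centring, and HC lay 2.53 above PHC (adjusted p = 0.0013) without overlap. A putative protein phosphatase 2C (GSVIVT00024235001), of a family that holds negative regulators of abscisic acid signalling, had 0.09, -0.45 and -0.24 after HC against -2.29, -2.61 and -3.45 after PHC and -0.41, -1.23 and -0.69 after P. Embryonic protein DC-8-like (GSVIVT00021718001) and a LEA protein (GSVIVT00034564001), of a class that protects drying cells, were above 0 on HC replicate 1 (0.26 and 0.56) and below it on replicates 2 and 3, and did not pass the test after HC. An AMP-dependent synthetase (GSVIVT00009148001) had -0.69, -0.23 and -0.78 after HC against -3.47, -2.73 and -3.56 after PHC. The remaining gene was a tetrahydrocannabinolic acid synthase-like gene (GSVIVT00018778001), which rose with 4.04, 3.50 and 3.88 after HC against 0.19, 1.40 and 2.04 after PHC and 0.75, 1.67 and 2.98 after P, all HC values above the others.

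Some genes have only a bound, because the water signal was not well above background on any HC array. The bound sets the HC mean against the higher of the dim signal and the lowest signal well above background. It was at least 4.96-fold higher after HC for the monooxygenase GSVIVT00007380001, at least 3.56-fold for the protein kinase GSVIVT00015440001, at least 3.37-fold for bHLH041 (GSVIVT00016545001) and at least 2.32-fold for a SAUR-type auxin-responsive gene (GSVIVT00016384001). A nodulin MtN3 family gene (GSVIVT00006690001), of the SWEET type, was at least 1.47-fold lower, its HC signal not being well above background on any array. These bounds hold for the authors' scaling. With normexp and loess the log2 changes were 0.86 for GSVIVT00007380001, 0.64 for GSVIVT00015440001, 0.54 for bHLH041 (GSVIVT00016545001), 0.44 for the SAUR-type gene (GSVIVT00016384001) and -0.26 for the MtN3 family gene (GSVIVT00006690001), all below these bounds, and none of the 5 was called. Over all probes, 48 rises had such a dim water signal and 28 falls such a dim HC signal.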

How the data were processed

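Dormant grapevine buds were hybridised to 9 Agilent arrays, 3 per treatment, each against water control. Per the file headers, Agilent Feature Extraction 10.5 made the deposited intensities, subtracting a local background from each spot and normalizing the dyes by rank-consistent LOWESS. The deposited log2 values are the log2 ratio of Cy5 (treated) to Cy3 (control) that the authors derived from them. No counts exist, so the number of arrays limits the precision. Values called outliers by the scanner (81) were left out. A probe was tested where, in at least 1 treatment, all 3 arrays read it well above background with either dye (26395; 3733 were too dim). limma 3.58.1 in R 4.3.3 fitted 1 mean per treatment over 9 arrays, with 6 residual degrees of freedom, tested it against 0 and tested HC minus P and HC minus PHC, with Benjamini-Hochberg adjustment over all tested probes. All adjusted p in the text are from this moderated test, two-sided. Labels place replicates in 3 blocks but do not state separate RNA extractions, so p-values measure the spread between these samples. HC minus P and HC minus PHC share the HC arrays. Alternatives were normexp background correction (offset 50) with loess or median centring, other filters and thresholds, a replicate block, the HC arrays alone, and leaving out each array. The series table of the same arrays differed from the log2 values by at most 0.005. The 216 named genes were the 12 genes the study profiled by qRT-PCR, the 12 largest called rises and 12 falls with an informative name, 1 sign on all HC arrays and clear signal on at least 2, the 6 largest differences each way from P and from PHC under the same conditions, up to 4 called members each way of each list and up to 6 of each family. Members and lists were chosen with earlier results of these data known. Deviations from the treatment means correlated at 0.564, 0.245 and 0.345 between HC and P arrays of the same number, so for that comparison the numbers may be taken as pairs. Between HC and PHC they correlated at 0.577, 0.223 and 0.00285, and the numbers were not taken as pairs. The fit without the block was kept for all comparisons. The fitting code was tested on simulated data.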

Additional observations from a re-analysis of the deposited data

Results flagged for a closer look

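The following genes differed between treatments by the limma test of the difference itself. They are given as log2 differences, HC minus P or HC minus PHC, with no explanation weighed, and are the 6 largest each way among called probes with an informative name, arrays that did not overlap, and both channels well above background on at least 2 arrays of both treatments. They were picked by size, so their size is a description, and named genes outside these conditions can differ more, as ERF098-like (GSVIVT00020219001) did with 6.38 and GSVIVT00011402001 with 5.26 in HC minus P.

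HC exceeded P by 5.87 for dirigent protein 22 (GSVIVT00024744001), 5.3 for ERF 1B-like (GSVIVT00002192001), 4.94 for VvHB2 (GSVIVT00036443001), 4.05 for stilbene synthase 4 (GSVIVT00005194001), 4.04 for the crocetin glucosyltransferase (GSVIVT00003476001) and 3.83 for the shikimate kinase family gene (GSVIVT00014074001). HC lay below P, at -4.22 for the xyloglucan endotransglycosylase (GSVIVT00006913001), -3.85 and -2.54 for peroxidases 64 (GSVIVT00011734001 and GSVIVT00015486001), -2.68 for the nodulin MtN21-related gene (GSVIVT00031771001), and -2.67 for both the dirigent family gene (GSVIVT00002504001) and the glutaredoxin (GSVIVT00019806001). The MtN21-related difference was lost in 8 alternatives, among them without P replicate 2 (-2.06) or HC replicate 3 (-2.32), and the dirigent family difference without P replicate 2 (-2.55) or 3 (-2.37).

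HC lay below PHC, at -5.76 for the xyloglucan endotransglycosylase (GSVIVT00006913001), -3.78 for the prephenate dehydrogenase (GSVIVT00003278001), -3.74 for the 36.4 kDa proline-rich protein-like gene (GSVIVT00009622001), -3.67 for the leucine-rich repeat gene (GSVIVT00021264001), -3.65 for the chloroplast nucleoid DNA-binding protein-related gene (GSVIVT00030279001) and -3.54 for the MtN21-related gene (GSVIVT00031771001). HC exceeded PHC by 2.68 for the AMP-dependent synthetase (GSVIVT00009148001), 2.6 for DC-8-like (GSVIVT00021718001) and for the tetrahydrocannabinolic acid synthase-like gene (GSVIVT00018778001), 2.58 for the LEA protein (GSVIVT00034564001) and the protein phosphatase 2C (GSVIVT00024235001), and 2.53 for ABSCISIC ACID-INSENSITIVE 5 (GSVIVT00021625001). Without PHC replicate 3 the proline-rich protein-like difference was -3.55 and no longer passed, and with normexp and loess that of DC-8-like was 1.11.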

How the results depend on the processing

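The rises after HC, and the genes higher after HC than after P, stayed within 1.5 times their number under the alternatives tried, except that 3805 probes were higher than water with no fold limit. Falls after HC numbered 468 with normexp and loess, 301 with normexp and median centring and 5120 with no fold limit. Genes lower after HC than after P numbered 443 and 510 under these scalings, 1265 with an unadjusted p, 1521 with no fold limit, and 419 to 1314 when single arrays were left out (419 without P replicate 2, 477 without P replicate 3, 1314 without HC replicate 2). Against PHC, median centring gave 431 higher and 3468 lower, and no fold limit 3449 and 4082. With the replicate block, 1389 probes rose and 1340 fell after HC, 980 were higher and 1156 lower than P, and 1541 were higher and 2477 lower than PHC, and no named gene lost its call after HC or its called difference from P or PHC. Of 202 called named genes, 99 kept their call in every alternative, 80 lost it with normexp and loess, 82 with median centring and 55 without at least 1 HC array. The cause of these losses was not tested. Probes with dim signal and 3 arrays a treatment limit the precision.

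Changes, most of them near 0, turned sign in 6 genes that were not called or were bounds. Leaving out single arrays gave -0.062 to 0.70 for VvGPX2 (GSVIVT00001920001), -0.45 to 0.40 for GSVIVT00021264001, -0.43 to 0.064 for GSVIVT00030279001 and -0.82 to 0.10 for GSVIVT00034564001. With median centring GSVIVT00030279001 was at 0.0055, GSVIVT00024235001 at 0.016 and GSVIVT00026322001 at -0.12.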
